A study of Mus musculus with 10 samples.

Results

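The granzyme and perforin genes of the mouse, Gzma, Gzmb, Gzmc, Gzmd, Gzme, Gzmf, Gzmg, Gzmk, Gzmm and Prf1, were taken by name, which gave 10 genes of the 54408 to which transcripts were assigned. Their transcripts were counted in CD8 T cells of the P14 type that had entered a melanoma. The receptor of P14 cells is a transgene that sees the peptide gp33. The tumours were made with B16-gp33, a melanoma line of the mouse that presents this peptide. The NFAT5 KO cells had floxed Nfat5 alleles and Cre recombinase under the Cd4 promoter (CD4-Cre+/-), and the WT cells had the same floxed alleles without Cre (CD4-Cre-/-), so both groups shared the floxed alleles, the P14 receptor and the C57BL/6 strain. Because that promoter acts during T cell development in the thymus, the gene was targeted before the cells were activated. Per the labels, the cells were kept activated in vitro for 48 hours before they were given to mice with a B16-gp33 tumour under the skin, and the tumour's CD8 T cells were sorted 7 days after that. The 5 NFAT5 KO libraries were numbered 678_3, 678_5, 678_6, 679_2 and 679_6, and the 5 WT libraries were 678_2, 678_4, 679_3, 679_4 and 679_5. The labels do not explain the prefixes 678 (3 NFAT5 KO and 2 WT libraries) and 679 (2 NFAT5 KO and 3 WT libraries), and they do not state that each library came from its own mouse. The p-values therefore cover the spread of these 10 libraries only, and some of it may be technical.

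Granzymes are serine proteases that cytotoxic T cells and natural killer cells store in lytic granules. When the granule is released against a target cell, perforin, a pore-forming protein encoded by Prf1, lets the granzymes enter the target's cytosol. Granzyme B cleaves after aspartate and activates caspases, and granzyme A is a tryptase that kills by a route that does not need caspases. NFAT5 is a transcription factor of the Rel family, known for the response to osmotic stress, and the design asks what its loss changes in tumour-infiltrating CD8 T cells.

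The libraries held 22444310 to 32001285 estimated counts. Levels of a gene are given in CPM, its counts scaled to a fixed library size, and levels of different genes are compared in TPM, which also divides by transcript length. Nfat5 itself was counted at 12.2, 12.6, 11.6, 26.8 and 11.9 CPM in the NFAT5 KO libraries, in the order given above, against 18.02, 17.2, 18.3, 9.20 and 14.2 CPM in the WT libraries. Library 679_2 was the highest of all 10 although labelled NFAT5 KO, and the groups overlapped. The labels do not say which part of the gene was floxed, so a count over the whole gene is no check on the deletion. The 10 CD8 T cell markers summed to 7200 to 8191 TPM in NFAT5 KO and 6890 to 7577 TPM in WT libraries. The 12 macrophage markers summed to 26.9 to 68.3 TPM (median 31.02) in NFAT5 KO and 62.9 to 141 TPM (median 100.1) in WT libraries. Most of this sum came from Cd68 and Lyz2 in every library. Cd68 was at 15.32 to 25.61 TPM in NFAT5 KO and 21.82 to 34.77 TPM in WT libraries. Lyz2 was at 0.4981 to 26.02 TPM in NFAT5 KO and 16.14 to 58.51 TPM in WT libraries. Itgam did not follow, at 1.987 to 5.565 TPM in NFAT5 KO and 0.7218 to 4.103 TPM in WT libraries. The median log2 fold change of the 9 tested macrophage markers was -1.88. The 9 NK cell markers summed to 14.0 to 23.6 TPM in NFAT5 KO and 31.2 to 52.2 TPM in WT libraries. Most of the NK cell sum came from Tyrobp and Fcer1g in every library. Tyrobp was at 8.925 to 14.07 TPM in NFAT5 KO and 8.926 to 21.19 TPM in WT libraries. Fcer1g was at 2.383 to 8.935 TPM in NFAT5 KO and 17.27 to 30.77 TPM in WT libraries. No other marker of the NK cell list exceeded 2.923 TPM, so the sum is no measure of NK cells. Among the tested markers of these 3 lists, Cd2 and Cd5 of the CD8 T cell list were called higher in NFAT5 KO libraries, and Adgre1 of the macrophage list and Fcer1g of the NK cell list lower. Ncr1, which defines NK cells, and Sox10, Pax5 and the mast cell genes Tpsb2, Tpsab1 and Fcer1a were at 0 in every library, while no macrophage marker was at 0 in all of them.

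Granzyme B dominated the cytotoxic transcripts of these cells in both genotypes, followed by perforin and then granzyme A. Over all 10 libraries Gzmb averaged 1478 TPM and ranked 95th among the 54408 genes. Prf1 followed at 284 TPM and Gzma at 145 TPM. Gzmk, a tryptase related to granzyme A, stood at 38.1 TPM, Gzmc at 25.96 TPM and Gzmm at 8.68 TPM. Gzmf, Gzmd and Gzme were at 4.99, 2.30 and 1.40 TPM. Gzmg had no read assigned in any library. A count of 3 in a single library would be 0.0938 to 0.134 CPM, a floor that covers counting error alone. Reads that Gzmg shares with its close relatives may have been assigned to those genes, so this floor is no upper limit on its level. The summed TPM of the 10 genes ranged from 1320 to 3757 in NFAT5 KO and from 1141 to 2739 in WT libraries, and the ranges overlapped. Neighbours in this order were not separated in each library. Gzma exceeded Prf1 in NFAT5 KO 678_5 (443 against 419 TPM) and was below Gzmk in WT 679_4 (31.97 against 37.5 TPM). Gzmc exceeded Gzmk in WT 678_2 and 678_4 and was below it in the other 8 libraries, and it was below Gzmm in 5 of 10, NFAT5 KO 678_3, 678_6 and 679_2 and WT 679_3 and 679_4. Gzmf exceeded Gzmm in NFAT5 KO 678_5 and WT 678_4 and was below Gzmd in NFAT5 KO 678_3 and 679_6. Gzme exceeded Gzmd in NFAT5 KO 678_3 and 679_6 and in WT 679_5. Gzmb was the highest of the 10 genes in every library.

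**Figure D1:**
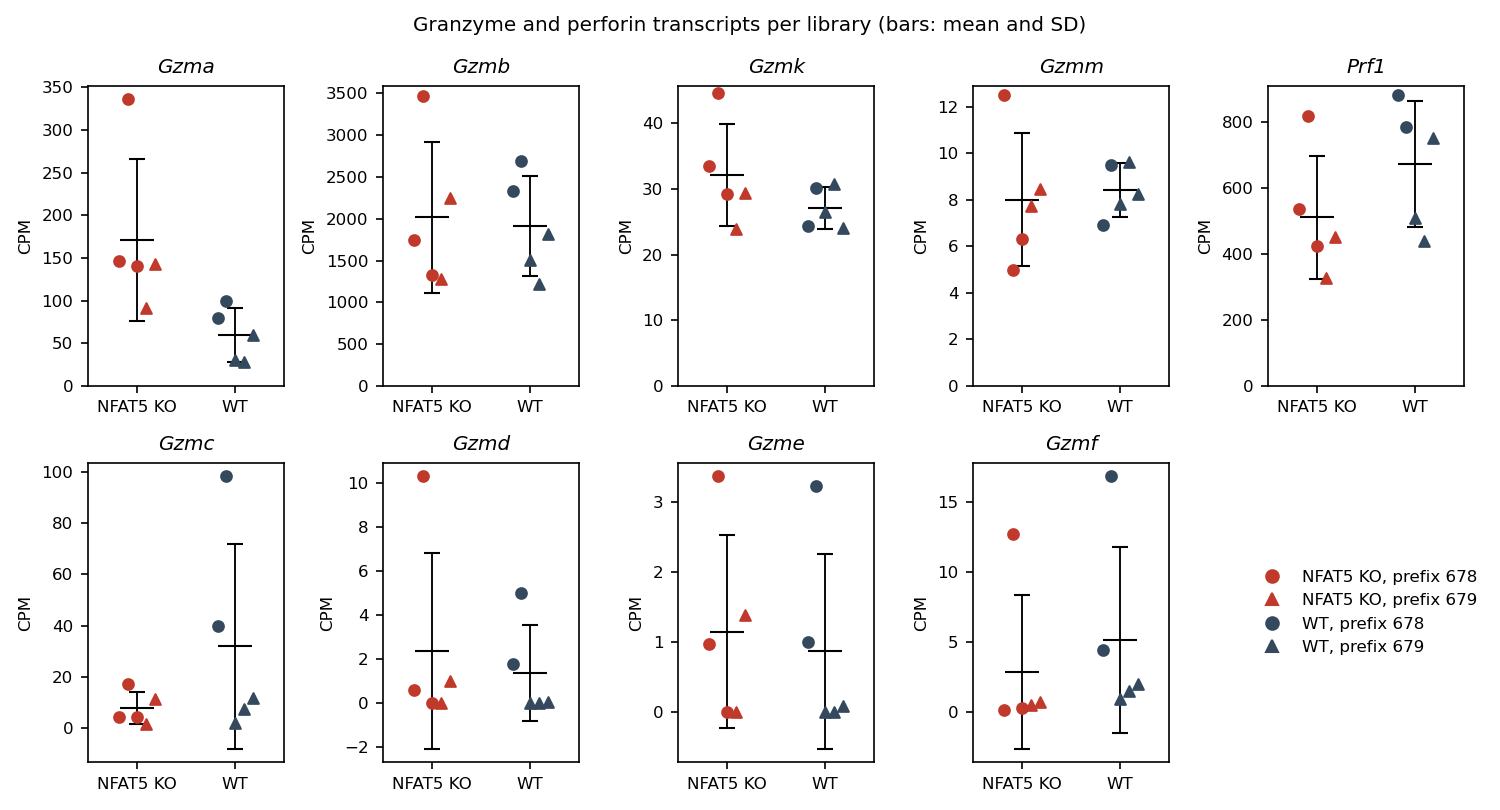
Scaled levels in CPM (vertical axes, 1 scale per gene) of the 9 detected genes in NFAT5 KO libraries (red, left) and WT libraries (blue, right), with circles for label prefix 678 and triangles for 679. Bars mark the mean and SD of 5 libraries; Gzma is higher in NFAT5 KO libraries with a single crossing, and Gzmc, Gzmd, Gzme and Gzmf are each led by 1 or 2 libraries of prefix 678.

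Of the 9 genes with enough counts to be tested, Gzma alone passed the threshold between genotypes, higher in NFAT5 KO cells. Of the 13081 genes tested, 9.01% passed in either direction, 3.38% higher and 5.63% lower in NFAT5 KO, so 1 gene of 9 is near that background. At an unadjusted p below 0.05, 2 of the 9 passed (Gzma and Gzmc), against 23.2% of all genes tested. The median log2 fold change of the 9 genes was 0.08, against 0.02 over all genes tested.

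Gzma (ENSMUSG00000023132, GRCm38 chromosome 13, 113093825 to 113100981, minus strand), which encodes the tryptase granzyme A, was counted at 147, 336, 140.4, 91.1 and 143 CPM in NFAT5 KO libraries, against 79.9, 100.0, 30.7, 27.5 and 59.9 CPM in WT libraries. Every NFAT5 KO library except 679_2 was above every WT library, and NFAT5 KO 679_2 was below WT 678_4 alone. Means were 171 ± 94.9 CPM in NFAT5 KO and 59.6 ± 31.3 CPM in WT libraries (SD, n = 5 each). Gzma rose 2.88-fold in NFAT5 KO cells (log2 fold change 1.52, SE 0.40), with an adjusted p of 0.0328 by edgeR's quasi-likelihood test. In bulk RNA a larger share of cells with the transcript and more transcript per cell cannot be told apart.

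The call on Gzma was close to the threshold. It held in 3 of 10 fits that left out 1 library, in which the log2 fold change ran from 1.11 (without NFAT5 KO 678_5) to 1.77 and the adjusted p by edgeR's quasi-likelihood test from 0.0189 to 0.0793. It held when NFAT5 KO 678_3 or 679_2 or WT 678_4 was left out, and was lost without any of the other 7 libraries. With the mean of the macrophage markers as a covariate the log2 fold change was 0.80 (adjusted p = 0.708 by edgeR's quasi-likelihood test), in a fit that called 27 genes in all. The part of these markers in the change of Gzma was not tested beyond that fit.

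Within each label prefix the NFAT5 KO and WT libraries did not overlap for Gzma, with NFAT5 KO above. That held for none of the other 8 genes in either direction, and for 5.88% of all genes tested with NFAT5 KO above and 8.04% with NFAT5 KO below. Within prefix 678 Gzma averaged 208 CPM in NFAT5 KO and 89.96 CPM in WT libraries (log2 fold change 1.20, SE 0.40, adjusted p = 0.348 by edgeR's quasi-likelihood test). Within prefix 679 it averaged 117 CPM in NFAT5 KO and 39.4 CPM in WT libraries (1.57, SE 0.36, adjusted p = 0.0861 by the same edgeR test). With the prefix as a block the log2 fold change was 1.39 and the adjusted p 0.0146 by edgeR's quasi-likelihood test.

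Gzmb (ENSMUSG00000015437, chromosome 14, 56258838 to 56262260, minus strand), the gene of granzyme B, did not follow Gzma. In NFAT5 KO libraries its level was 1746, 3471, 1329, 1284 and 2252 CPM, against 2329, 2696, 1511, 1217 and 1813 CPM in WT libraries. NFAT5 KO 678_5 was the highest of the 10 and WT 679_4 the lowest, and the other libraries of both genotypes were interleaved. Means were 2016 ± 902 CPM in NFAT5 KO and 1913 ± 600.4 CPM in WT libraries (SD, n = 5 each), and the log2 fold change of 0.08 with an SE of 0.28 did not pass (adjusted p = 0.908 by edgeR's quasi-likelihood test). Without NFAT5 KO 678_5 the log2 fold change was -0.23. Within prefix 678 the mean was 2182 CPM in NFAT5 KO and 2512 CPM in WT libraries, and within prefix 679 it was 1768 CPM in NFAT5 KO and 1514 CPM in WT libraries.

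The ratio of the 2 transcripts within a library separated the genotypes fully. The log2 ratio of Gzma to Gzmb CPM was -3.57, -3.37, -3.24, -3.82 and -3.98 in NFAT5 KO libraries, against -4.87, -4.75, -5.62, -5.47 and -4.92 in WT libraries. The lowest NFAT5 KO value was thus above the highest WT value, over all libraries as in each prefix alone. In linear terms there were 9.46 to 15.8 Gzmb counts for each Gzma count in NFAT5 KO libraries and 27.0 to 49.3 in WT libraries. The means were -3.60 ± 0.31 in NFAT5 KO and -5.13 ± 0.39 in WT libraries (SD, n = 5 each), a difference of 1.53 (two-sided exact permutation test, p = 0.00794, the smallest value that 5 against 5 libraries allow). The difference was 1.41 within prefix 678, 1.44 within prefix 679 and 1.41 to 1.63 with 1 library left out at a time. A ratio between 2 genes shows unequal change and does not say which of them moved. Among single genes, each NFAT5 KO library was above each WT library for 3.92% of all genes tested, and below each for 6.41%. How many gene pairs have a ratio that separates in this way was not counted. The ratio uses the same Gzma counts as the call above, so it is not separate evidence for that call.

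**Figure D2:**
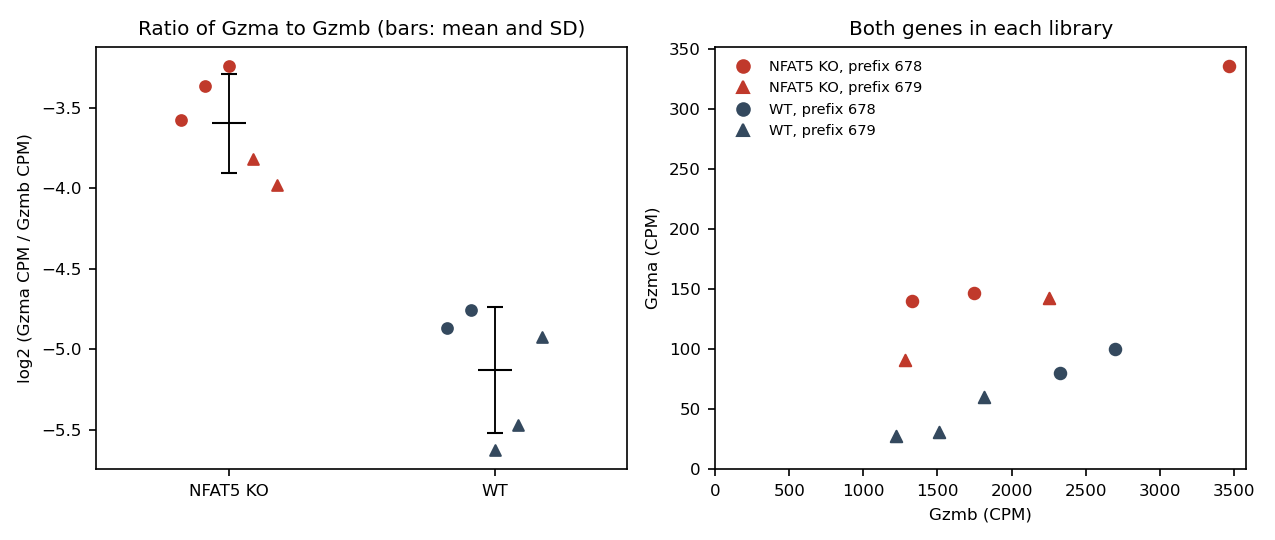
Left, the log2 ratio of Gzma to Gzmb CPM per library in NFAT5 KO (red) and WT (blue), with mean and SD of 5 libraries. Right, Gzma CPM against Gzmb CPM in the same libraries; NFAT5 KO points lie above WT points of a similar Gzmb level, and NFAT5 KO 678_5 stands apart at 336 CPM of Gzma and 3471 CPM of Gzmb.

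The promoters of these 2 genes are shown because the genes moved unequally. Each line gives the 150 bases before the transcription start in RefSeq on GRCm38.p6, for Gzma chr13:113100982-113101131 and for Gzmb chr14:56262335-56262484, both read from the minus strand.
Gzma: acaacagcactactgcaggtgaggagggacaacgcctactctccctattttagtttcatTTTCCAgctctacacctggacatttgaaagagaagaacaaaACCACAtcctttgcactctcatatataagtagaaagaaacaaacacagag
Gzmb: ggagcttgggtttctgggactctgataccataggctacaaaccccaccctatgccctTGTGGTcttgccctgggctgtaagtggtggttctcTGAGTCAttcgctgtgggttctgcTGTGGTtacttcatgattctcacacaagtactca
Capitals mark matches to short binding motifs on either strand. In Gzma these are TTTCCA, a match to the core that NFAT proteins share (GGAAA or TTTCC) and to a longer core of NFAT5 (TGGAAA or TTTCCA) that contains it, at positions -91 to -86 from the start, and the Runx core ACCACA. In Gzmb they are the Runx core (TGTGGT) at 2 places and an AP-1 site (TGANTCA). Among 32851 RefSeq promoter windows of the same length, 37.6% held the NFAT core, 10.8% the NFAT5 core, 8.40% the Runx core and 4.24% the AP-1 motif. These matches describe the letters of the windows and do not show that a factor binds.

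Prf1 (ENSMUSG00000037202, chromosome 10, 61297833 to 61304680, plus strand), the gene of perforin, was counted at 537, 818, 426, 326 and 452 CPM in NFAT5 KO libraries, against 882, 784, 508, 439 and 752 CPM in WT libraries. The NFAT5 KO libraries other than 678_5 lay in the lower part of the range, and the groups overlapped. Means were 512 ± 187 CPM in NFAT5 KO and 673 ± 190 CPM in WT libraries (SD, n = 5 each), with a log2 fold change of -0.40 (SE of 0.24, adjusted p = 0.360 by edgeR's quasi-likelihood test). Without NFAT5 KO 678_5 it was -0.64 (adjusted p = 0.0832 by the same edgeR test). Within prefix 678 the means were 594 CPM in NFAT5 KO and 833 CPM in WT libraries, and within prefix 679 they were 389 CPM in NFAT5 KO and 567 CPM in WT libraries. Of the 2 annotated Prf1 transcripts, Prf1-202 held 64.3% to 75.9% of the counts per library, with medians of 69.2% in NFAT5 KO and 69.7% in WT libraries.

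As a part of the summed TPM of the 10 genes, Gzma made up 10.3% ± 1.71 in NFAT5 KO and 3.65% ± 0.88 in WT libraries (SD, n = 5 each), with ranges of 8.24% to 12.1% in NFAT5 KO and 2.60% to 4.49% in WT libraries. Prf1 made up 12.4% ± 1.86 in NFAT5 KO and 17.0% ± 1.72 in WT libraries, and its ranges of 10.1% to 14.8% in NFAT5 KO and 14.1% to 18.5% in WT libraries overlapped. Gzmb took 74.0% ± 3.36 in NFAT5 KO and 74.8% ± 1.63 in WT libraries. In NFAT5 KO 678_5 the share of Gzma exceeded that of Prf1 (11.8% against 11.2%), whereas in WT libraries the highest Gzma share was 4.49% and the lowest Prf1 share 14.1%. Shares of a sum are bound to each other, so a larger share of one gene lowers the others.

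**Figure D3:**
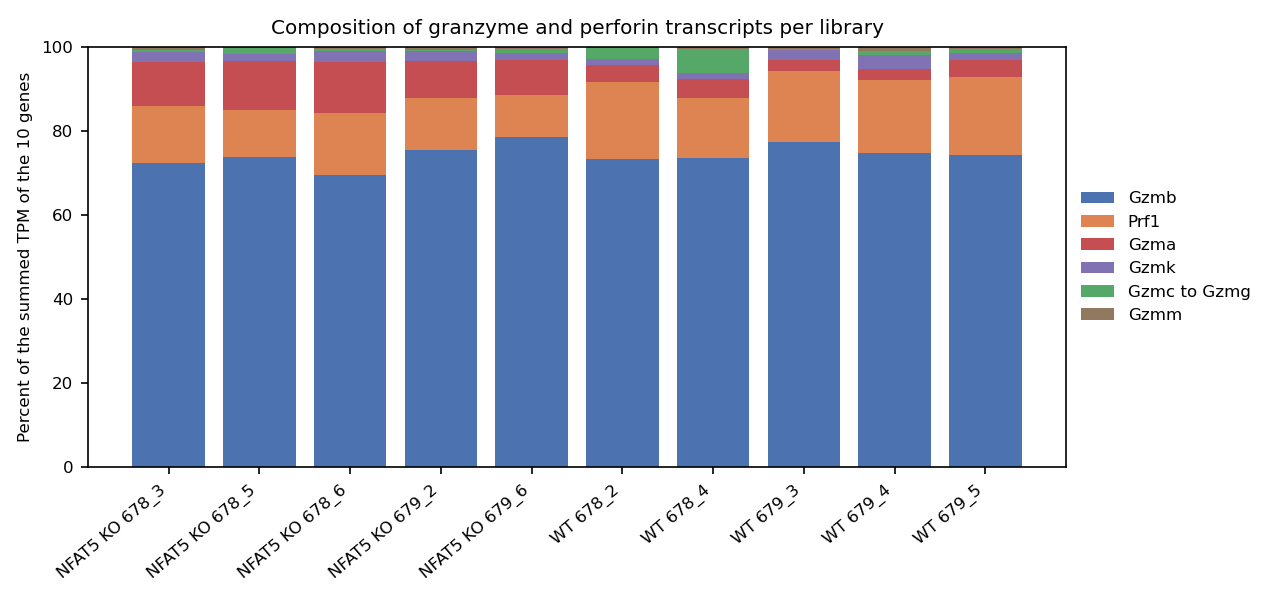
Share of each gene, in percent, of the summed TPM of the 10 genes in each library, with the 5 NFAT5 KO libraries on the left and the 5 WT libraries on the right. The red Gzma band spans 8.24% to 12.1% in NFAT5 KO and 2.60% to 4.49% in WT libraries, and the green band of Gzmc to Gzmg is widest in WT 678_4.

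Gzmk and Gzmm varied least between libraries. Gzmk (ENSMUSG00000042385, chromosome 13, 113171608 to 113225908, minus strand), the other tryptase, lies within 132.1 kb of Gzma on the same strand. In NFAT5 KO libraries its level was 33.5, 44.7, 29.2, 23.9 and 29.5 CPM, against 24.3, 30.2, 26.4, 30.8 and 24.0 CPM in WT libraries, and NFAT5 KO libraries held both the highest and the lowest value. Its log2 fold change came to 0.24 (SE 0.17, adjusted p = 0.420 by edgeR's quasi-likelihood test). Its main transcript, Gzmk-201, held 65.9% to 78.0% of the counts, and a transcript annotated for nonsense-mediated decay, Gzmk-203, held 15.8% to 24.8%. Gzmm (ENSMUSG00000054206, chromosome 10, 79689020 to 79695261, plus strand), which encodes a granzyme that cleaves after methionine and leucine, averaged 7.999 ± 2.85 CPM in NFAT5 KO and 8.41 ± 1.15 CPM in WT libraries (SD, n = 5 each). Its libraries ran from 4.98 to 12.5 CPM in NFAT5 KO and from 6.91 to 9.61 CPM in WT, with a log2 fold change of -0.07 (SE of 0.25, adjusted p = 0.903 by the same edgeR test). NFAT5 KO 678_5, the highest library for Gzma, Gzmb and Gzmk, was the lowest for Gzmm.

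Gzmc, Gzmd, Gzme, Gzmf and Gzmg lie with Gzmb in a cluster of 144.6 kb on chromosome 14, all on the minus strand. They encode granzymes of rodents whose substrates are less well known than those of granzyme B. The letters of the genes are close, as the first 90 coding bases from the GENCODE M21 transcripts show, with capitals where a gene differs from Gzmd at the same place.
Gzmd: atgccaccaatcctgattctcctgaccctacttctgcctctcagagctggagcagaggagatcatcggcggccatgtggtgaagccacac
Gzme: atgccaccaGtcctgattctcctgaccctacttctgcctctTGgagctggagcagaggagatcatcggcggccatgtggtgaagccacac
Gzmf: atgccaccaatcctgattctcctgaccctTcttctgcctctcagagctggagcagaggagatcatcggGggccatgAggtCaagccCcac
Gzmc: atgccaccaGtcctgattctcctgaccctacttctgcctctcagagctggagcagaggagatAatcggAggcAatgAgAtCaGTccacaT
Gzmb: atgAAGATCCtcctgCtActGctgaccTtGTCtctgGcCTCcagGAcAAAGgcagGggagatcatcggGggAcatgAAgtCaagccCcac
Over these bases Gzme differed from Gzmd at 3 places, Gzmf at 5, Gzmc at 10 and Gzmb at 31. Over whole transcripts the identity to Gzmd was 94.8% for Gzme, 90.2% for Gzmg and 86.9% for Gzmf. Some of the 31-base words of each transcript also occurred in a transcript of another gene. Their share was 38.2% in Gzmd, 42.1% in Gzme, 22.8% in Gzmf, 33.8% in Gzmg and 14.8% in Gzmc. It was 1.35% in Gzmb, and Gzma had none. Salmon shares such reads by a model, so the split among Gzmd, Gzme, Gzmf and Gzmg is uncertain.

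Gzmc (ENSMUSG00000079186, 56231441 to 56234656) showed the largest spread among the better expressed genes. It was counted at 4.48, 17.0, 4.30, 1.54 and 11.3 CPM in NFAT5 KO libraries, against 39.9, 98.4, 1.82, 7.62 and 11.7 CPM in WT libraries. WT 678_4 and WT 678_2 were far above the rest, and the 3 other WT libraries fell within the range of the NFAT5 KO libraries. Means were 7.73 ± 6.32 CPM in NFAT5 KO and 31.9 ± 40.0 CPM in WT libraries (SD, n = 5 each). The log2 fold change of -2.04 (SE 0.89) did not pass (adjusted p = 0.187 by edgeR's quasi-likelihood test) and was -0.998 without WT 678_4.

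Within prefix 678 the mean was 8.61 CPM in NFAT5 KO and 69.2 CPM in WT libraries (log2 fold change -3.01, SE 0.67), and within prefix 679 it was 6.42 CPM in NFAT5 KO and 7.03 CPM in WT libraries (-0.13, SE 0.94). The test of the difference between prefixes gave an unadjusted p of 0.0474 and an adjusted p of 0.9998 by edgeR's quasi-likelihood test, and no gene of the 13081 passed it, with 377 at an unadjusted p below 0.05.

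Gzmd (ENSMUSG00000059256, 56129556 to 56132608) had reads assigned in 6 of 10 libraries. In NFAT5 KO libraries its level was 0.611, 10.3, 0, 0 and 1.003 CPM, against 1.77, 5.01, 0, 0 and 0.0438 CPM in WT libraries. Gzme (ENSMUSG00000022156, 56117626 to 56120625) followed it at 0.978, 3.37, 0, 0 and 1.39 CPM in NFAT5 KO libraries, against 1.001, 3.24, 0, 0 and 0.0876 CPM in WT libraries. The same 4 libraries had no read assigned to either gene, NFAT5 KO 678_6 and 679_2 and WT 679_3 and 679_4. Gzmf (ENSMUSG00000015441, 56205263 to 56211417) was read in all 10, at 0.163, 12.7, 0.269, 0.480 and 0.712 CPM in NFAT5 KO libraries, against 4.41, 16.9, 0.955, 1.52 and 2.01 CPM in WT libraries. NFAT5 KO 678_5 and WT 678_4 led for these 3 genes, and apart from NFAT5 KO 678_5 each NFAT5 KO library had less Gzmf than each WT library.

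None of Gzmd, Gzme and Gzmf passed the threshold. The log2 fold change was 0.80 for Gzmd (SE 1.64), 0.41 for Gzme (SE 1.5) and -0.84 for Gzmf (SE 1.14), and edgeR's quasi-likelihood test put the adjusted p at 0.823, 0.909 and 0.709 for the 3 genes. Without NFAT5 KO 678_5 they were -1.75, -0.55 and -3.65, and Gzmf then passed in the lower direction (adjusted p = 0.0315 by the same edgeR test). Summed over Gzmd to Gzmg, which avoids the split among them, the estimated counts were 43, 720, 6, 14 and 96 in NFAT5 KO libraries, against 215, 737, 30, 45 and 49 in WT libraries, a log2 fold change of -0.21.

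The promoters of the cluster are shown because these genes were high in the same libraries. The lines give 150 bases before the RefSeq start on GRCm38.p6, minus strand, at chr14:56234658-56234807 for Gzmc, chr14:56132594-56132743 for Gzmd, chr14:56120626-56120775 for Gzme and chr14:56211408-56211557 for Gzmf.
Gzmc: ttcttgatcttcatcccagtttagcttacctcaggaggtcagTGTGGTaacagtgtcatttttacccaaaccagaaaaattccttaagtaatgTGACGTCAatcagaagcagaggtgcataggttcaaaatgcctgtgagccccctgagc
Gzmd: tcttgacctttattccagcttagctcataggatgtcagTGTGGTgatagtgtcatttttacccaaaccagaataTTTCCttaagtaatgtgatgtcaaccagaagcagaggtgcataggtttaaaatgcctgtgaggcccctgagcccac
Gzme: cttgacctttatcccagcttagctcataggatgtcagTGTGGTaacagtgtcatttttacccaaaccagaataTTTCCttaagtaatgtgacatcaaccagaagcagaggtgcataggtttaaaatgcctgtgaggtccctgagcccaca
Gzmf: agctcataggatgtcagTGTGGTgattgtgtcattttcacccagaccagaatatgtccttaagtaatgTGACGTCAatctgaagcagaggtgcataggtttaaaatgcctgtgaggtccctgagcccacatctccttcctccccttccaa
Capitals again mark motif matches on either strand. All 4 windows held the Runx core TGTGGT, as did that of Gzmg. The full cyclic AMP response element TGACGTCA, found in 1.36% of the 32851 windows, was in Gzmc, Gzmf and Gzmg and not in Gzmd or Gzme. The NFAT core TTTCC was in Gzmd, Gzme and Gzmg. Over the aligned bases the Gzmd window was 96.0% identical to that of Gzme, 93.8% to that of Gzmf and 89.7% to that of Gzmc.

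No other gene of the locus list gave a level that could be tested. Of 9 neighbours on chromosome 14, the granzyme gene Gzmn, the cathepsin G gene Ctsg, the chymase genes and the mast cell protease genes, 8 were at 0 in every library, and Cma1 had 10 counts in NFAT5 KO 679_2 and 9 in WT 678_4.

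The spread within a genotype ordered the 9 genes in another way than their level. The pooled SD of log2 CPM was 0.26 for Gzmk, 0.37 for Gzmm, 0.46 for Prf1, 0.53 for Gzmb and 0.76 for Gzma, against a median of 0.34 over all genes tested. It was 1.82 for Gzmc, 1.97 for Gzmf, 2.54 for Gzme and 2.95 for Gzmd, and 96.9% to 99.97% of the genes tested had a smaller spread than these 4. Library NFAT5 KO 678_5 was the highest of 10 for Gzma, Gzmb, Gzmd, Gzme and Gzmk and next to the highest for Gzmf and Prf1. Its macrophage marker sum, 26.9 TPM, was the lowest of the 10. NFAT5 KO 678_6 and 679_2 had sums nearly as low, 30.6 and 31.02 TPM. Those 2 libraries ranked 4 and 6 of 10 for Gzma, 8 and 9 for Gzmb, and 9 and 10 for Prf1.

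**Figure D4:**
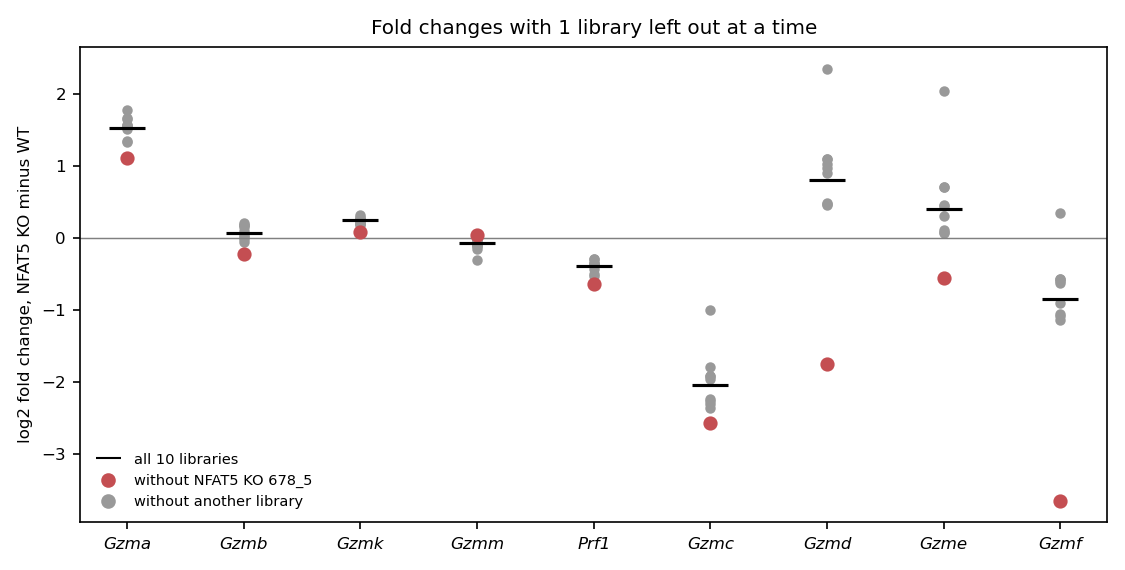
Log2 fold changes, NFAT5 KO minus WT, of the 9 tested genes with all 10 libraries (black bars) and with 1 library left out (points; red without NFAT5 KO 678_5, grey without another). Gzma stays between 1.11 and 1.77, while Gzmd, Gzme and Gzmf change sign with a single library.

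The genes whose log2 CPM, centred on the mean of each gene, stayed nearest to a given granzyme across the 10 libraries were taken from 8494 genes whose log2 CPM averaged at least 3. Nearest to Gzma were Ttc39c (root-mean-square distance 0.28), Ifitm2, an interferon-induced membrane protein (0.37), and Tg, the thyroglobulin gene (0.38), against a median distance of 1.05 over these genes. Near to Gzmb were Slc2a3, a glucose transporter (0.12), and Cln3, a lysosomal protein (0.22), with a median of 0.54. Nearest to Prf1 were Zdhhc15 (0.21), the lactate transporter Slc16a3 (0.21) and Hps5, a part of a complex that builds lysosome-related organelles (0.23), with a median of 0.54. Nearest to Gzmk were Pstpip1 (0.11), Rnasek (0.12) and Letmd1 (0.12), with a median of 0.37. Nearest to Gzmc were Serpinb9b, a serpin of the granzyme B inhibitor family (0.97), Adgrg5 (1.28) and Zfp568 (1.34), with a median of 1.78. A gene with the same level in all libraries would lie at 1.76 from Gzmc, 1.03 from Gzma and 0.48 from Gzmb. It would lie at 0.46 from Prf1 and 0.26 from Gzmk. The genes nearest to Gzmc therefore followed it only in part. The lists of the 5 genes had no gene in common, and these distances are a description of 10 libraries.

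Around the granzymes, genes that pack and activate them were split in direction. Granzymes are made as proenzymes that cathepsin C trims, reach the granule through mannose 6-phosphate receptors and bind there to the proteoglycan serglycin. Of 13 such genes tested, 2 rose and 2 fell in NFAT5 KO cells, against 3.38% higher and 5.63% lower over all genes tested, and the median of the 13 was 0.04 on the log2 scale, against 0.02. Srgn, which encodes serglycin, ran from 1318 to 1746 CPM (median 1430.0) in NFAT5 KO and from 899 to 1263 CPM (median 993) in WT libraries, and rose, with a log2 fold change of 0.54 and an SE of 0.11 (adjusted p = 0.00845 by edgeR's quasi-likelihood test). M6pr, the cation-dependent mannose 6-phosphate receptor, ran from 433 to 513 CPM in NFAT5 KO and from 339 to 386 CPM in WT libraries, and rose by 0.43 (SE 0.07, adjusted p = 0.00267). Ctsc, the gene of cathepsin C, was lower at 181 to 190 CPM in NFAT5 KO and 204 to 243 CPM in WT libraries, and so was Cst7, the gene of cystatin F, an inhibitor of cathepsin C, at 232 to 291 CPM in NFAT5 KO and 304 to 393 CPM in WT libraries. Their log2 fold changes were -0.26 (SE 0.07, adjusted p = 0.0434 by edgeR's quasi-likelihood test, kept in 4 of 10 fits without 1 library and lost at 0.0629 with the label prefix as a block) and -0.37 (SE 0.09, adjusted p = 0.0201, lost at 0.0609 without WT 678_2). Groups did not overlap for any of these 4 genes. Each NFAT5 KO library was above each WT library for 3.92% of all genes tested, and below each for 6.41%.

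Of 7 serpins, 6 were tested and 3 fell, against 5.63% lower over all genes tested, with a median log2 fold change of -0.78, against 0.02. Serpins of this kind are cytosolic inhibitors that shield the cell from proteases that leak from granules. Serpina3g, an inhibitor of lysosomal cathepsins, ran from 121 to 216 CPM in NFAT5 KO and from 265 to 376 CPM in WT libraries (log2 fold change -0.94, SE 0.15, adjusted p = 0.00224 by edgeR's quasi-likelihood test). Serpinb1a, an inhibitor of neutrophil serine proteases, ran from 4.21 to 23.5 CPM in NFAT5 KO and from 30.4 to 59.4 CPM in WT libraries (-2.38, SE 0.48, adjusted p = 0.00796). Serpinb6a, an inhibitor of cathepsin G, ran from 24.8 to 47.3 CPM in NFAT5 KO and from 49.2 to 67.2 CPM in WT libraries (-0.63, SE 0.16, adjusted p = 0.0291, kept in 5 of 10 fits without 1 library). The serpin best known as the inhibitor of granzyme B, Serpinb9, did not pass at a log2 fold change of 0.38 (adjusted p = 0.128 by edgeR's quasi-likelihood test), nor did Serpinb9b at -1.62 (adjusted p = 0.0604). The last of the 6, Serpinb6b, was at 0.21 and did not pass (adjusted p = 0.572 by the same edgeR test). Serpinb9 and Serpinb6b thus did not share the direction of the called serpins. The macrophage marker sum had a median of 31.02 TPM in NFAT5 KO and 100.1 TPM in WT libraries, and with the mean of these markers as a covariate 1 gene of the 5 pathway lists was called, Serpinb1a (-3.79). In that fit the log2 fold change was 0.52 for Srgn (0.54 without the covariate), -0.81 for Stx7 (-0.86) and 0.47 for Ltb (0.46). It was 0.28 for Tbx21 (0.56), -0.68 for Serpina3g (-0.94), -0.37 for Vamp8 (-0.59) and 0.35 for Il2rg (0.51). The covariate averaged -0.45 ± 1.155 in NFAT5 KO and 1.45 ± 0.646 in WT libraries (SD, n = 5 each). It went in part with genotype, so the fit cannot separate the 2. The part of the markers in these changes was not tested. Without NFAT5 KO 678_5 the log2 fold change of Serpinb1a was -3.25.

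Of 21 genes of granule transport and exocytosis, 1 rose and 2 fell, against 3.38% higher and 5.63% lower over all genes tested, with a median of -0.04 on the log2 scale, against 0.02. Stx7, a syntaxin of late endosomes, ran from 13.2 to 17.4 CPM in NFAT5 KO and from 26.1 to 28.7 CPM in WT libraries (log2 fold change -0.86, SE 0.13, adjusted p = 0.00199 by edgeR's quasi-likelihood test). Vamp8, a SNARE protein of endosomes that takes part in granule release, ran from 58.6 to 75.4 CPM in NFAT5 KO and from 80.5 to 123 CPM in WT libraries (-0.59, SE 0.12, adjusted p = 0.00936). Sytl3, a synaptotagmin-like partner of Rab27 proteins, ran from 84.6 to 106.0 CPM in NFAT5 KO and from 50.1 to 79.9 CPM in WT libraries (0.61, SE 0.13, adjusted p = 0.00941). Rab27a and Unc13d, which dock and prime the granule, were at -0.12 and -0.04 and did not pass (adjusted p = 0.786 and 0.869 by the same edgeR test).

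Of 20 regulators of cytotoxic genes, 3 rose and none fell, against 3.38% higher and 5.63% lower over all genes tested, with a median of 0.29 on the log2 scale against 0.02 over all genes. Il2rg, the common gamma chain of the interleukin-2 receptor, ran from 1724 to 1974 CPM in NFAT5 KO and from 1197 to 1640.0 CPM in WT libraries (log2 fold change 0.51, SE 0.09, adjusted p = 0.00458 by edgeR's quasi-likelihood test). Tbx21, the gene of T-bet, ran from 209 to 285 CPM in NFAT5 KO and from 148 to 205 CPM in WT libraries (adjusted p = 0.00735), and Gata3 from 87.5 to 116 CPM in NFAT5 KO and from 64.4 to 77.8 CPM in WT libraries (0.48, SE 0.11, adjusted p = 0.0130). Eomes (0.41), Runx3 (0.18) and Prdm1 (0.06), further factors tied to cytotoxic genes, did not pass (adjusted p = 0.449, 0.461 and 0.895 by the same edgeR test). The list of other death effectors held 6 genes, death ligands as well as cytokines, and a place in it does not mean that a gene kills by itself. In it Ltb, the gene of lymphotoxin beta, ran from 691 to 843 CPM in NFAT5 KO and from 475 to 599 CPM in WT libraries (0.46, SE 0.08, adjusted p = 0.00362 by the same edgeR test), and Fasl, the Fas ligand gene, from 111 to 160 CPM in NFAT5 KO and from 91.5 to 106 CPM in WT libraries (adjusted p = 0.0169 by that test, kept in 5 of 10 fits without 1 library). Both rose and none of the 6 fell, against 3.38% higher and 5.63% lower over all genes tested, and the median of the 6 was 0.27 on the log2 scale, against 0.02. The called genes named from the 5 pathway lists kept their direction within each label prefix. Of them, Serpinb1a, Il2rg and Fasl passed within prefix 679 (adjusted p = 0.00996, 0.0356 and 0.0257 by edgeR's quasi-likelihood test) and none within prefix 678.

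**Figure D5:**
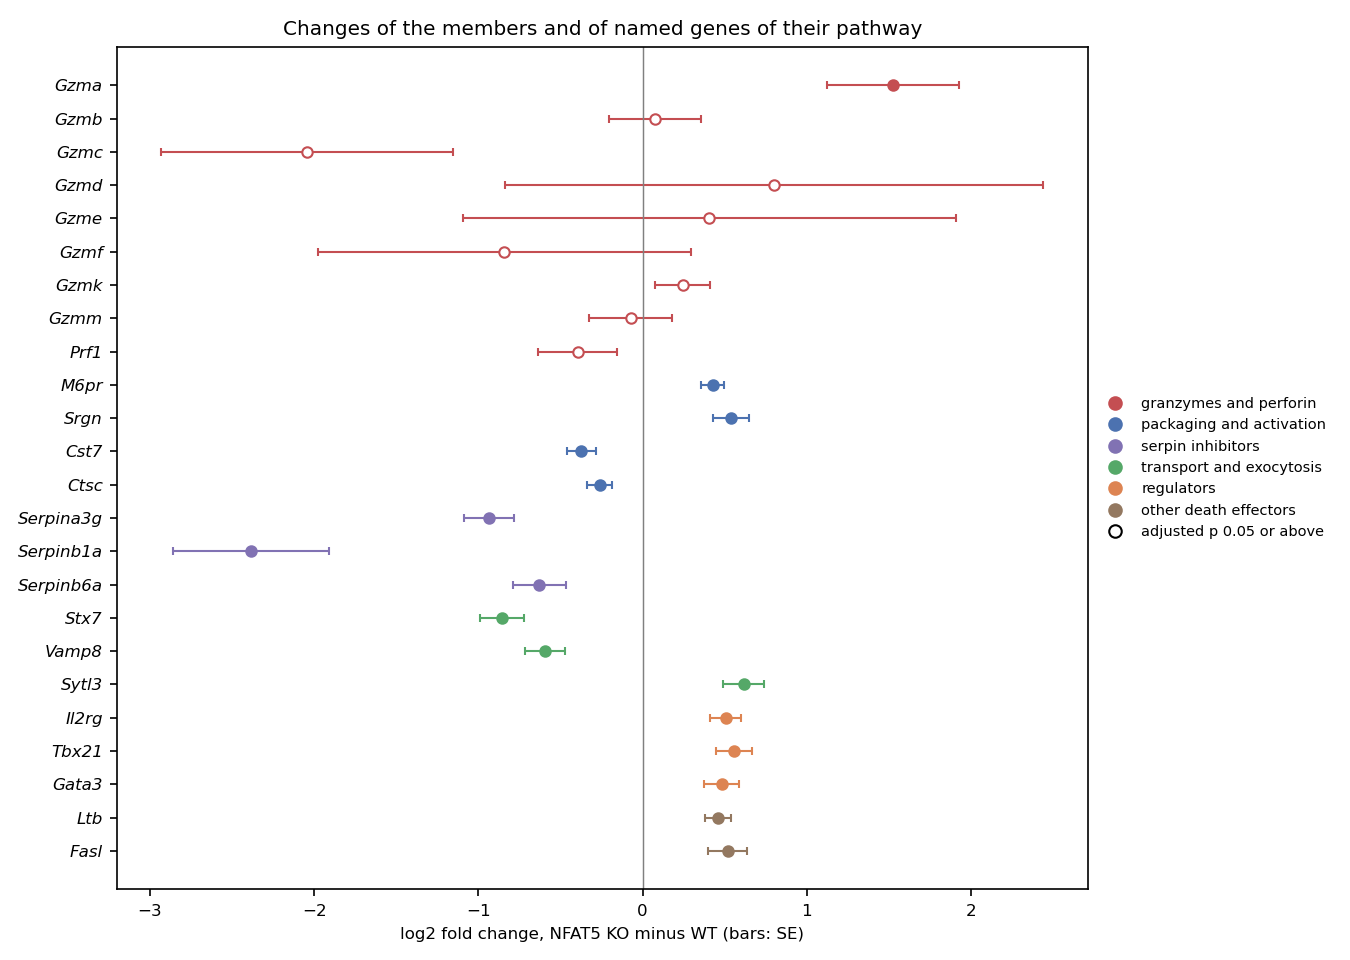
Log2 fold changes, NFAT5 KO minus WT, with SE bars for the 9 tested granzyme and perforin genes and for the called genes of 5 pathway lists (colours); filled points passed the threshold and open points did not. Gzma is the single filled point among the granzymes, at 1.52, and the called serpins lie at -0.63 to -2.38. Serpins that were not called are not drawn.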

How the data were processed

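RNA of P14 CD8 T cells sorted from tumours was made into Nextera XT libraries and sequenced, as the labels' protocols say. The authors deposited Salmon tables with an estimated count and a TPM value per transcript, neither scaled between libraries. The submitters' processing notes name Salmon 0.14.1 as a tool, and GRCm38.p6 with mm10 as builds. Which annotation release and strand setting were chosen is not given in the sources used here. Without strand, reads of a gene and of an overlapping antisense gene cannot be told apart.

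Transcripts were matched to GENCODE M21 by identifier without version (140045 of 140919, 99.38%, with 0.191% to 0.228% of the estimated counts unmatched). The estimated counts of a gene's transcripts were added up, and the sums rounded to whole numbers. TPM values were summed per gene. Each library was counted as 1 replicate. No 2 libraries agreed within sampling noise, so none was a copy of another. That check cannot show that each came from its own mouse. Genes were filtered with filterByExpr (13081 left), scaled with TMM and tested with edgeR 4.0.16 (quasi-likelihood test, robust, R 4.3.3) over all 10 libraries without covariates. P-values were adjusted by Benjamini and Hochberg's method over all genes tested, and a gene passed below 0.05. SE is the size of the log2 fold change over the square root of F. A prior count of 2 went into log2 CPM. The ratio of Gzma to Gzmb was the 1 value tested by exact permutation. Libraries held 22444310 to 32001285 estimated counts, which limits the precision of low genes, and floors cover counting error only.

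The alternatives were DESeq2 1.42.0 size factors and Wald test, library size alone, limma-voom (limma 3.58.1), no filter or a stricter filter (at least 5 CPM in at least 5 libraries), a length offset, the label prefix as a block or alone, macrophage or melanoma markers as a covariate, and leaving out each library. The genes and the lists around them were chosen with earlier results of these data known. The text names Nfat5, the 10 genes, up to 5 called genes per pathway list with the smallest p-values, the locus neighbours and the 3 nearest genes by root-mean-square distance for 5 of the genes. A gene that this rule took is not reported here. Genes of the lists named as not passing were chosen after their values were seen, for their known roles. Serpinb6b was named because it completes the tested serpins. Promoter windows come from RefSeq on GRCm38.p6 and coding letters from GENCODE M21. Protein sequences were not used here.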

Additional observations from a re-analysis of the deposited data

Results flagged for a closer look

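For 26 named genes, the CPM of the 5 libraries of each genotype were checked for a single library far from the rest, 52 groups in all. Chance alone flags about 1 in 20 such groups if the values are normal and independent, and 7 were found. CPM of low genes such as Gzmd and Gzmf are skewed, and the genes share the same libraries. The groups of Gzmg, at 0 throughout, could not be flagged. That rate is therefore only a rough guide here. NFAT5 KO 678_5 stood apart for Gzma at 336 CPM (the 4 other NFAT5 KO libraries were at 91.1 to 147 CPM), for Gzmd at 10.3 CPM (others 0 to 1.003), for Gzmf at 12.7 CPM (others 0.163 to 0.712) and for Serpinb1a at 23.5 CPM (others 4.21 to 5.03). WT 678_4 stood apart for Gzmf at 16.9 CPM (the 4 other WT libraries were at 0.955 to 4.41 CPM) and for Il2rg at 1640.0 CPM (others 1197 to 1259). NFAT5 KO 679_2 stood apart for Nfat5 at 26.8 CPM (others 11.6 to 12.6).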

How the results depend on the processing

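No paired analysis was possible because the library numbers in the labels are not shared between NFAT5 KO and WT. The count of 1179 called genes (442 higher, 737 lower in NFAT5 KO) was 0, 0 and 0 with prefix 678 alone (1449 genes at an unadjusted p below 0.05 by edgeR), 325, 71 and 254 with prefix 679 alone, and 27, 1 and 26 with the macrophage covariate. It was 1893 (811 higher) with the DESeq2 Wald test, and 285 genes were higher with the melanoma covariate. Library size alone took the higher share of calls to 28.2%, against 37.5%. The 1 called granzyme, Gzma, was not called (0) without the low-count filter, with either prefix alone or with either covariate, where its adjusted p by edgeR was 0.0904, 0.348 and 0.0861, 0.708 and 0.0818, while the DESeq2 Wald test and limma-voom gave 0.0176 and 0.0181. Genes of the 5 pathway lists called higher or lower, 8 and 7, were 0 and 0 with prefix 678 alone and 3 and 1 with prefix 679 alone. They were 0 and 1 with the macrophage covariate. In that fit Srgn, Stx7 and Ltb were at 0.52, -0.81 and 0.47, near the values without it. Further from those values were Tbx21, Serpina3g and Il2rg, at 0.28, -0.68 and 0.35. The prefix as a block ended the call of Ctsc alone among the called genes that are named. The causes of these shifts were not tested, though a single prefix has 5 of the 10 libraries.

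With 1 library left out, 696 (without WT 678_2) to 1276 genes were called (202 to 490 higher, 494 to 786 lower, with 202 to 267 higher without WT 678_2, 679_3 or 679_5 or NFAT5 KO 678_6, 679_2 or 679_6), 0 to 1 granzyme higher and 0 to 1 lower, and 7 to 12 genes of the pathway lists higher and 4 (without WT 678_2) to 7 lower. The log2 ratio of Gzma to Gzmb stayed at 1.41 to 1.63, with an exact permutation p of 0.0159 each time, and was 1.53 in TPM. The sign of log2 fold changes that had not passed turned under some settings. With prefix 678 alone Gzmb was -0.21 and Gzme -0.55, and with prefix 679 alone Gzmk was -0.0298 and Nfat5 0.47. With the macrophage covariate Gzmb was -0.24, Gzmd -1.66, Gzme -0.44 and Gzmm 0.32, with limma-voom Gzmb was -0.14 and Gzmd -0.0863, and with Gzmd to Gzmg summed the value was -0.21 in place of those of Gzmd and Gzme. With the length offset Gzmm was 0.0368 and Nfat5 0.0681. Leaving out 1 library gave -0.23 to 0.21 for Gzmb, -1.75 to 2.35 for Gzmd, -0.55 to 2.03 for Gzme, -3.65 to 0.34 for Gzmf, -0.31 to 0.0413 for Gzmm and -0.37 to 0.0253 for Nfat5. In all, 456 of the values of single genes under an alternative kept direction and side of the threshold, 74 no longer passed, 1 newly passed and 27 turned in sign.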

Other observations

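Gzma-201 held 97.4% to 100.0% of the Gzma counts of a library and its other transcript the rest. For Gzmm a processed transcript, Gzmm-202, took 0 to 40.3% of the counts, with medians of 25.5% in NFAT5 KO and 18.4% in WT libraries. Among the promoter windows that were not shown, that of Gzmk held a T-box motif (GGTGTGA, in 1.92% of the 32851 windows), that of Gzmm the NFAT5 core and that of Prf1 the Runx core.

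Of the gamma delta T cell markers, 3 were found in the annotation. They summed to 99.1 to 128 TPM in NFAT5 KO and 78.0 to 91.6 TPM in WT libraries. Nearly all of this sum was Trdc, the constant region of the T cell receptor delta chain. Trdc was at 99.06 to 126.7 TPM in NFAT5 KO and 78.01 to 91.63 TPM in WT libraries, and was called higher in NFAT5 KO libraries. Sox13 did not exceed 1.553 TPM and Il17a was at 0 in every library, so the sum is no measure of gamma delta T cells. The B cell markers summed to 4.91 to 9.79 TPM in NFAT5 KO and 7.32 to 13.6 TPM in WT libraries, and the melanoma markers to 0.374 to 2.06 TPM in NFAT5 KO and 0.508 to 2.42 TPM in WT libraries.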
